A study of Homo sapiens with 10 samples.

Results

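10 genes of the transforming growth factor beta (TGF-beta) system were followed in CH157-MN meningioma cells: the ligand genes TGFB1, TGFB2 and TGFB3, the receptor genes TGFBR1, TGFBR2 and TGFBR3, the latent TGF-beta binding protein genes LTBP1 and LTBP2, the induced matrix gene TGFBI and the activin subunit gene INHBA. They were taken by gene name from a table of 58735 genes, and all 10 were found and passed the filter on low counts. The cells came from 1 established human line, CH157-MN. The control group was given PBS, a salt buffer, and the other group 100 nM of an antibody-drug conjugate (ADC), in which a humanised antibody against the somatostatin receptor SSTR2 carries the tubulin poison MMAF. The ADC cells were collected on day 3 of treatment, and no separate day is stated for the PBS cells. Each group holds 5 RNA-seq libraries, and the study asks how the transcriptome differs after the conjugate.

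TGF-beta is secreted in a latent form, bound to its own propeptide. LTBP proteins such as LTBP1 tether this complex to the matrix until integrins or proteases release the ligand. Free ligand binds the type II receptor kinase TGFBR2, which activates the type I receptor TGFBR1, and this kinase phosphorylates SMAD2 and SMAD3. Activin, a dimer of INHBA products, uses other receptors of the family but the same SMADs. In mesenchymal and tumour cells the pathway is known for control of matrix genes and of proliferation.

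Total counts per library ranged from 28262162 to 36463724. SSTR2, the antibody's target, had only 3 to 22 counts in PBS and 10 to 20 counts in ADC libraries. Of 10 markers of meningioma and arachnoid cells, VIM (3398 ± 123 CPM in PBS, SD, n = 5) and CLDN11 (389 ± 7 CPM) were abundant, the others had at most 33 counts in a library, and PGR and ALDH1A2 had 0 in every library. The 10 markers summed to 3639 to 3937 CPM in PBS and 3841 to 3982 CPM after ADC, and of the 4 tested CLDN11 was called lower (log2 fold change -0.10, SE 0.03, adjusted p = 0.019). CPM, the unit used throughout, is a gene's count scaled to a common library size, with TMM factors between libraries. Of 15 leukocyte markers 6 were at 0 in all libraries, and their summed level was 0.613 to 2.70 CPM in PBS and 2.16 to 3.08 CPM in the ADC libraries. The 6 platelet and megakaryocyte markers summed to 0.636 to 1.72 CPM in PBS and 0.711 to 1.47 CPM in the ADC libraries, with PPBP and GP9 at 0. The 6 endothelial markers summed to 1.48 to 3.0 CPM in PBS and 3.30 to 4.88 CPM in the ADC libraries, and 1 of the 3 tested, PECAM1, was called higher. These are bulk libraries, so fewer cells of a kind and less RNA per cell cannot be told apart.

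The promoters of the 3 genes with separated groups, LTBP1, TGFBR3 and LTBP2, are shown as the 250 bases before a RefSeq start (assembly GRCh38.p14), 5′ to 3′ on the gene's strand. Capitals mark the SMAD box CAGAC (or GTCTG on the other strand) and the cyclic AMP response element (CRE) TGACGTCA. LTBP1 is the first of 3 starts, chr2:32946703-32946952 on the plus strand, TGFBR3 is chr1:91886152-91886401 on the minus strand, and LTBP2 is chr14:74612238-74612487 on the minus strand.
LTBP1: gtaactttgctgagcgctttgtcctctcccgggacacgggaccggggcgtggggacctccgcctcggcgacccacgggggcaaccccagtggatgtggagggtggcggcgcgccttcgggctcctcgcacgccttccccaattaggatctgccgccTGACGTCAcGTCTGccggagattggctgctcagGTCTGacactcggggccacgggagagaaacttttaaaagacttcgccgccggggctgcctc
TGFBR3: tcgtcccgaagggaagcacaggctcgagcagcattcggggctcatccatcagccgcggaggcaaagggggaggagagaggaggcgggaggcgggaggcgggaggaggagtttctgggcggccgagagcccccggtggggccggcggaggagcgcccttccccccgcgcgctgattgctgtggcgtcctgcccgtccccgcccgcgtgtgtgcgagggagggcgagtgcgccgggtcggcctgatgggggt
LTBP2: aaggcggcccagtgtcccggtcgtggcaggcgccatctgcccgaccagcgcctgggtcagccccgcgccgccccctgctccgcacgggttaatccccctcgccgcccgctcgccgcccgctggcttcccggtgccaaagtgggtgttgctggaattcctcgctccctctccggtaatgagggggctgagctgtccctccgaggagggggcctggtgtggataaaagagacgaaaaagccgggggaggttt

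The LTBP1 sequence holds the CRE at -94 and SMAD boxes at -85 and -61 from the start. The printed stretches of TGFBR3 and LTBP2 hold none of these letters, and the one SMAD box of LTBP2 begins at base 29 after the start. Over the full windows of 300 bases (250 before and 50 after the start), read on both strands, 11 of the 21 windows of the 10 genes (52.4%) held a SMAD box, against 45.3% of 35116 windows in the RefSeq table. The 11 windows belong to 6 genes, and some windows of a gene overlap. The CRE was found in 1 of the 21 windows, that of LTBP1, and in 1.85% of all windows. The longer SMAD form AGCCAGAC, which contains CAGAC, occurred in a TGFB3 window and in 1.29% of all windows. The AP-1 motif TGACTCA or TGAGTCA occurred in a TGFBR2 window, across its start, and in 4.95% of all windows. The GC box GGGCGG occurred in 9 of the 21 windows (42.9%) and in 45.0% of all windows. TGFBR3 has 2 GC boxes and LTBP2 has 3, while the LTBP1 window has none. Gene counts do not tell which start was used.

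On hg38 the ligand genes lie on chromosome 19 from 41301587 to 41353911 (TGFB1, ENSG00000105329), on chromosome 1 from 218346235 to 218444619 (TGFB2, ENSG00000092969) and on chromosome 14 from 75958099 to 75982991 (TGFB3, ENSG00000119699). The receptor genes lie on chromosome 9 from 99104038 to 99154192 (TGFBR1, ENSG00000106799), on chromosome 3 from 30606502 to 30694142 (TGFBR2, ENSG00000163513) and on chromosome 1 from 91680343 to 91906335 (TGFBR3, ENSG00000069702). LTBP1 (ENSG00000049323) lies on chromosome 2 from 32946972 to 33399509 and LTBP2 (ENSG00000119681) on chromosome 14 from 74498170 to 74612378. TGFBI (ENSG00000120708) lies on chromosome 5 from 136028895 to 136063818 and INHBA (ENSG00000122641) on chromosome 7 from 41667168 to 41705834. Counts cover the exons of a whole gene, coding and untranslated together.

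After ADC, 4 of the 10 genes were called higher, 0 were called lower and 6 were not called. The co-receptor TGFBR3 rose most, 1.57-fold, followed by LTBP1 (1.32-fold), LTBP2 (1.14-fold) and TGFBR1 (1.13-fold). Among all 14504 genes tested, 20.8% were called, 10.8% higher and 10% lower. The groups did not overlap for TGFBR3, LTBP1 and LTBP2, which is 3 of 10, where 7.29% of all tested genes lay wholly higher in ADC. The median log2 fold change of the 10 genes was 0.19, and that of all tested genes was -0.00. Scaled to library size alone, the share of higher genes among all calls was 63.3% instead of 51.8%, and the same number of these 10 genes, 4, was called higher.

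**Figure D1:**
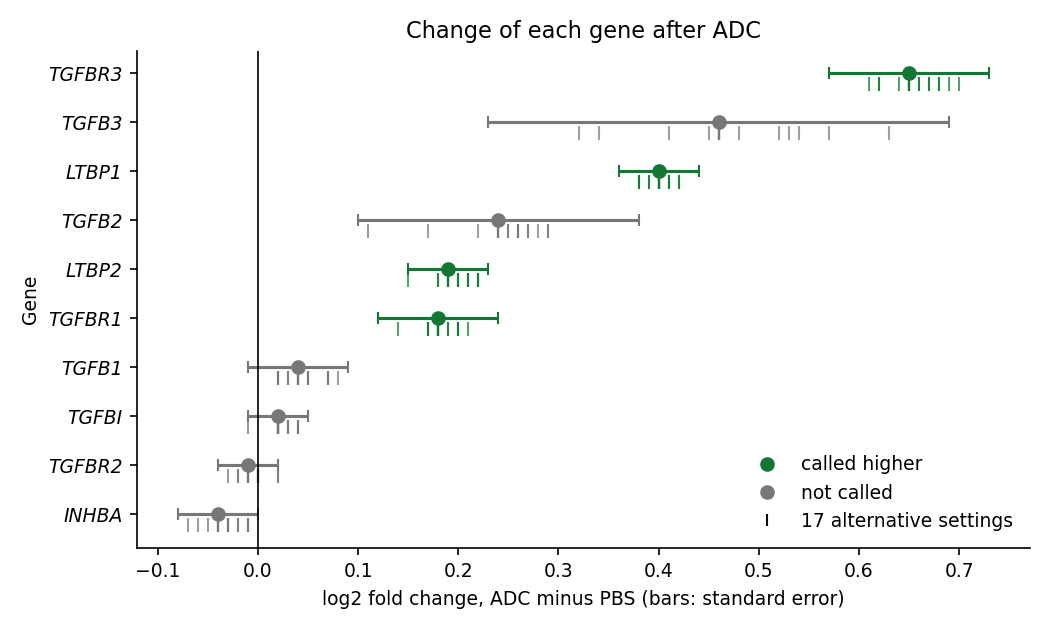
Log2 fold change, ADC minus PBS, of the 10 genes with the standard error as a bar, and the values under 17 alternative settings as ticks below each point. TGFBR3 (0.65) and LTBP1 (0.40) lie farthest from 0 among the called genes, and TGFB3 has the widest bar (SE 0.23).

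The 10 genes spanned a wide range of levels. Divided by the exon length of each gene, the type II receptor TGFBR2 had the highest level in PBS, 124 ± 3 CPM per kilobase (SD, n = 5). TGFBI followed at 81.4 ± 0.9 CPM per kilobase, TGFB1 at 34.5 ± 2.3 and INHBA at 21.7 ± 1.2. LTBP1 and LTBP2 stood at 14.9 ± 0.4 and 12.6 ± 0.7 CPM per kilobase. TGFBR1 stood at 5.28 ± 0.22 and TGFBR3 at 1.83 ± 0.14 CPM per kilobase. TGFB2 (1.17 ± 0.25) and TGFB3 (0.377 ± 0.143 CPM per kilobase) were lowest. By the mean over all 10 libraries, TGFBR2 lay at percentile 98.0 of the tested genes, TGFB2 at 29.7 and TGFB3 at 16.1. In PBS no gene overlapped its neighbour in this order, and in ADC the order of the means was the same, but INHBA (19.8 to 23.0 CPM per kilobase) overlapped LTBP1 (18.7 to 20.4). Divided by the longest transcript instead, TGFBI (136 CPM per kilobase in PBS) stood above TGFBR2 (127), and no other rank moved.

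**Figure D2:**
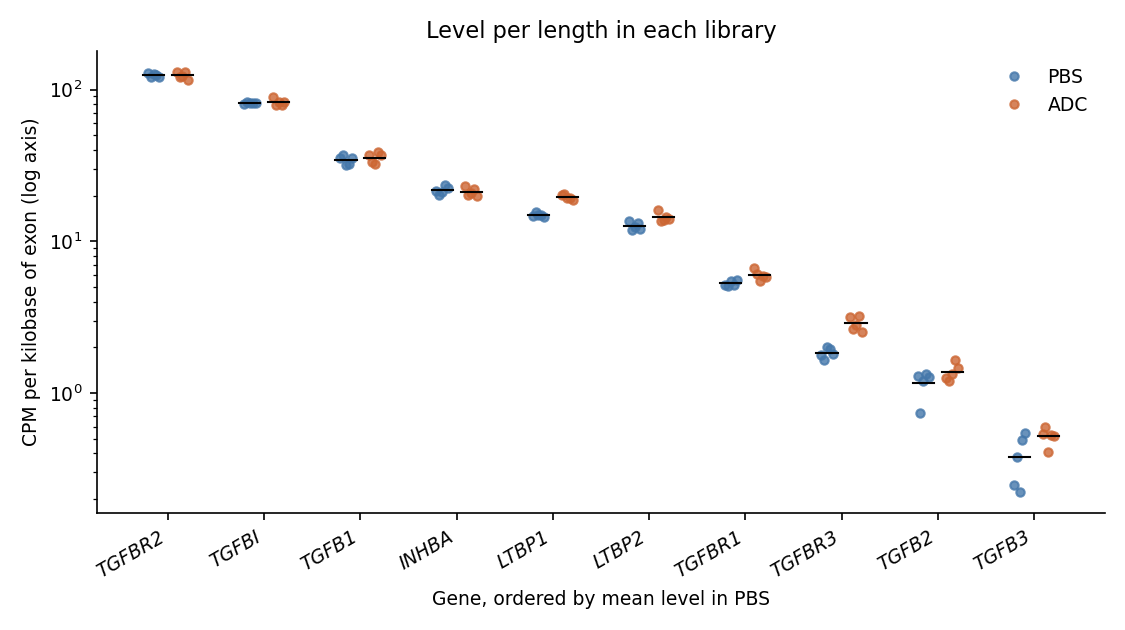
Level per length of the 10 genes in each library, in CPM per kilobase of exon on a log axis, with points for the 5 PBS and 5 ADC libraries and a line at each mean. TGFBR2 lies near 124 in both groups, and TGFB3 lies lowest at 0.377 in PBS and 0.519 in ADC.

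Among the ligands TGFB1, the most widely expressed isoform, was dominant and did not pass the test. Its level was 115, 120, 103, 104 and 115 CPM in PBS replicates 1 to 5 and 120, 107, 105, 125 and 119 CPM in ADC replicates 1 to 5. The groups overlapped almost completely, with a log2 fold change of 0.04 (SE 0.05, adjusted p = 0.58). TGFB1 made up 95.7% ± 0.9 of the summed length-scaled level of the 3 ligands in PBS and 94.9% ± 0.3 in ADC (SD, n = 5). Part of its exons (6.64%) overlaps HNRNPUL1 on the other strand. HNRNPUL1 was more abundant than TGFB1, at 312 ± 8 CPM in PBS and 298 ± 9 CPM in ADC (SD, n = 5). The strand setting of the counts is not given, so the level of TGFB1 and its share of the ligands may include reads of HNRNPUL1.

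TGFB2, the isoform that depends most on the co-receptor TGFBR3 for binding to TGFBR2, had 128 to 224 counts in PBS and at least 213 counts in each ADC library. Its level was 6.66, 3.79, 6.17, 6.86 and 6.56 CPM in PBS replicates 1 to 5. In ADC replicates 1 to 5 it was 6.48, 6.12, 6.87, 8.55 and 7.47 CPM. PBS replicate 2 was low, and the other libraries of both groups overlapped. The log2 fold change of 0.24 (SE 0.14) was not called (adjusted p = 0.24), and without PBS replicate 2 it was 0.11 (adjusted p = 0.58). Of the exonic bases of TGFB2 26.6% also belong to TGFB2-OT1 on the same strand, which had 0 counts in every library. How reads in these shared bases were counted is not given in the labels, so the level of TGFB2, its rank and its share of the ligands may be too low if they were dropped.

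TGFB3, an isoform known for its part in palate development, had the lowest level of the 10 genes, with 32 to 91 counts in PBS and 69 to 107 counts in ADC libraries. Its level was 1.22, 1.87, 1.09, 2.40 and 2.68 CPM in PBS and 2.63, 2.92, 2.02, 2.61 and 2.56 CPM in ADC replicates 1 to 5. The PBS libraries were spread widely, and their 2 highest lay within the ADC range. The log2 fold change was 0.46 (SE 0.23, adjusted p = 0.18), and it ranged from 0.32 without PBS replicate 3 to 0.63 without PBS replicate 5, with no call in any of 17 alternatives. The coefficient of variation was 37.9% in PBS and 12.9% in ADC.

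INHBA, whose product forms activin A, was abundant and was not called. It ranged from 167 to 194 CPM in PBS and from 164 to 191 CPM in the ADC libraries, with a log2 fold change of -0.04 (SE 0.04, adjusted p = 0.61). The ratio of INHBA to TGFB1, each per length, was 0.633 ± 0.068 in PBS and 0.597 ± 0.042 in ADC (SD, n = 5), and the groups overlapped.

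Among the receptors, TGFBR3 encodes betaglycan, a proteoglycan that presents ligand to TGFBR2 and, when shed, can hold ligand away from the cell. It stood at 15.4, 14.4, 17.4, 16.9 and 15.7 CPM in PBS replicates 1 to 5. In ADC replicates 1 to 5 it stood at 27.8, 23.1, 24.4, 28.1 and 22.0 CPM. Every ADC library lay above every PBS library, and ADC replicates 1 and 4 were highest. The mean rose from 16.0 ± 1.2 to 25.1 ± 2.7 CPM (SD, n = 5 per group), a log2 fold change of 0.65 (SE 0.08, adjusted p = 3.5e-07). It was the gene with rank 170 by p among the 14504 tested, and its call held in 17 of 17 alternatives, with log2 fold changes of 0.61 to 0.70.

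TGFBR1, the kinase that signals to the SMADs, rose by a small amount. Its level was 35.1, 34.6, 37.4, 35.4 and 38.1 CPM in PBS and 45.3, 41.4, 37.6, 40.6 and 39.7 CPM in ADC replicates 1 to 5. ADC replicate 3 lay below PBS replicate 5, so the groups overlapped, and ADC replicate 1 was the highest library. The log2 fold change was 0.18 (SE 0.06, adjusted p = 0.021). The call was lost without ADC replicate 1 (0.14, adjusted p = 0.091) and without PBS replicate 1 (0.17, adjusted p = 0.052).

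TGFBR2, the ligand-binding kinase, was not called. It ranged from 569 to 604 CPM in PBS and from 544 to 615 CPM in the ADC libraries, with a log2 fold change of -0.01 (SE 0.03, adjusted p = 0.92). The length-scaled ratio of TGFBR3 to TGFBR2 was 0.0147 ± 0.0010 in PBS and 0.0232 ± 0.0013 in ADC (SD, n = 5), with no overlap between the groups. The ratio of TGFBR1 to TGFBR2 was 0.0425 ± 0.0023 in PBS and 0.0483 ± 0.0028 in ADC, and there the groups overlapped. These ratios were read within each library, do not depend on scaling between libraries and were not tested.

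LTBP1, which binds latent TGF-beta covalently and anchors it to fibrillin-rich matrix, had the smallest adjusted p of the 10 genes. It stood at 108, 114, 110, 108 and 105 CPM in PBS replicates 1 to 5. In ADC replicates 1 to 5 it stood at 149, 150, 140, 142 and 137 CPM. The 2 groups were well apart and tight within themselves, with coefficients of variation of 2.96% in PBS and 3.84% in ADC. The log2 fold change was 0.40 (SE 0.04, adjusted p = 1.5e-09), and 17 of 17 alternatives called it, with values of 0.38 to 0.42. Its length-scaled ratio to TGFB1 was 0.433 ± 0.030 in PBS and 0.554 ± 0.050 in ADC (SD, n = 5), without overlap.

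LTBP2 belongs to the same family but binds fibrillin rather than latent TGF-beta. Its level was 122, 109, 113, 119 and 110 CPM in PBS and 147, 124, 126, 132 and 128 CPM in ADC replicates 1 to 5. The groups were separated by a narrow gap, between PBS replicate 1 and ADC replicate 2, and ADC replicate 1 stood highest. The log2 fold change was 0.19 (SE 0.04, adjusted p = 0.0015), and 0.15 at adjusted p = 0.0098 without ADC replicate 1. The ratio of LTBP1 to LTBP2 per length was 1.18 ± 0.08 in PBS and 1.36 ± 0.09 in ADC (SD, n = 5), with overlap.

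**Figure D3:**
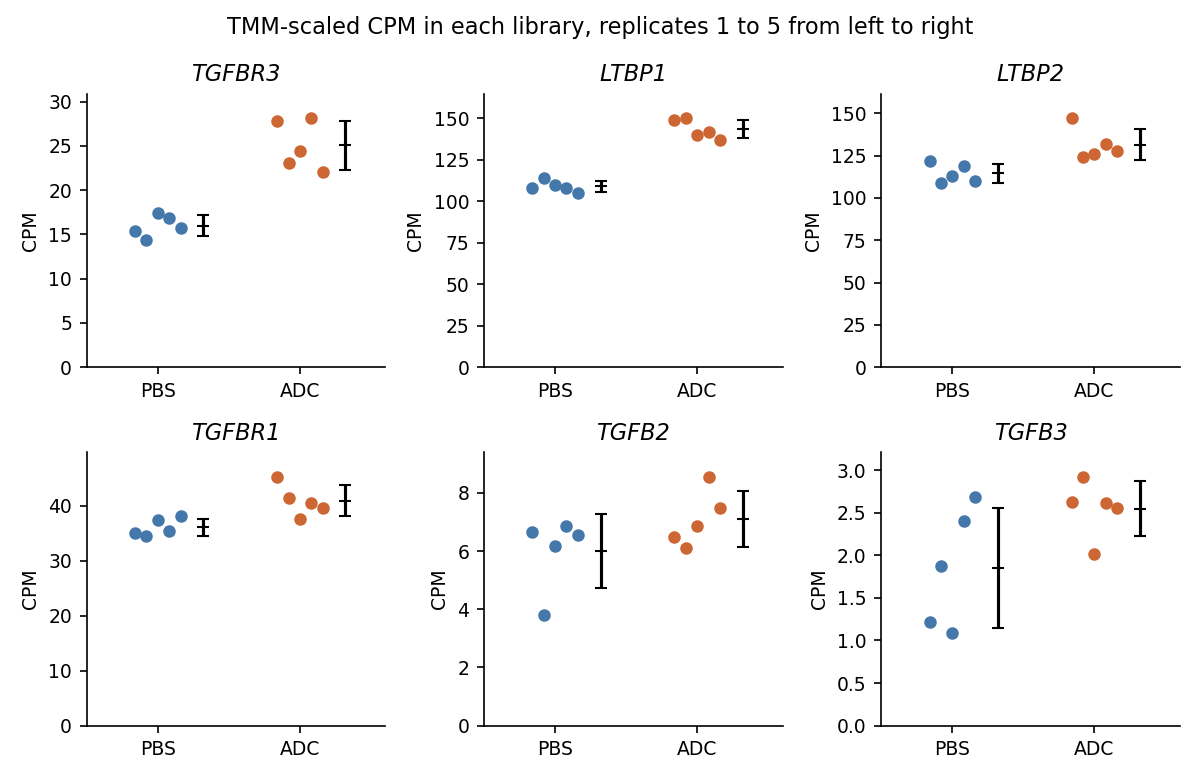
TMM-scaled CPM of TGFBR3, LTBP1, LTBP2, TGFBR1, TGFB2 and TGFB3 in each of the 5 PBS and 5 ADC libraries, with the mean and SD beside the points and axes that start at 0. The groups are apart for TGFBR3, LTBP1 and LTBP2 and overlap for TGFBR1, TGFB2 and TGFB3.

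TGFBI, a secreted adhesion protein named for its induction by TGF-beta, did not pass the test. It ranged from 624 to 642 CPM in PBS and from 617 to 700 CPM in the ADC libraries, with a log2 fold change of 0.02 (SE 0.03, adjusted p = 0.70). ADC replicates 1 and 3 stood highest, and ADC replicate 2 was the lowest of all libraries. The PBS libraries varied by 1.06%, the least of the 10 genes, and the ADC libraries by 5.15%.

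The genes around these 10 were read from lists of the pathway, with changes given as log2 fold changes. Beside each list stand the shares of all tested genes, 10.8% called higher and 10% called lower. Of 18 tested genes of the latent complex, matrix storage and activation, 10 were called higher (55.6%), 2 lower (11.1%) and 6 were not called. The median log2 fold change of this list was 0.20. Without ADC replicate 1 the counts were 11 higher and 2 lower. The urokinase gene PLAU rose by 0.54 (SE 0.03, adjusted p = 4.2e-14), the gelatinase MMP2 by 0.66 (SE 0.05) and EMILIN1, which restrains TGF-beta processing, by 0.60 (SE 0.06). Thrombospondin 1 (THBS1), an activator of latent TGF-beta, fell by 0.38 (SE 0.03, adjusted p = 5.2e-11), and the crosslinking enzyme TGM2 fell by 0.10 (SE 0.03, adjusted p = 0.015). The other LTBP genes, LTBP3 and LTBP4, were named after their values were seen. They rose by 0.45 (SE 0.07, adjusted p = 1.4e-05) and 0.23 (SE 0.06, adjusted p = 0.0028), and the groups overlapped for LTBP4. Each of the 4 LTBP genes was called higher, where 10.8% of all tested genes were. Also named after their values were seen, the integrin subunits ITGB8 and ITGAV, which pair to release latent TGF-beta, rose by 1.23 (SE 0.18, adjusted p = 6.1e-06) and 0.19 (SE 0.04, adjusted p = 0.0013). The groups of ITGAV overlapped. ITGB8 went from 3.57 ± 1.41 to 8.44 ± 1.79 CPM (SD, n = 5). FBN1, the fibrillin to which LTBPs bind and likewise named afterwards, was not called (-0.07, SE 0.04).

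Of 14 other tested receptors and co-receptors, 3 were called higher (21.4%), 1 lower (7.14%) and 10 were not called, with a median of 0.05. The shares of all tested genes were 10.8% higher and 10% lower. The co-receptors NRP2 and CD109 had log2 fold changes of 0.29 (SE 0.05) and 0.25 (SE 0.07), and the BMP receptor BMPR2 of 0.21 (SE 0.05). BAMBI, a decoy receptor that lacks a kinase, fell by 0.49 (SE 0.14, adjusted p = 0.0097). BAMBI stood at 6.59 ± 0.79 CPM in PBS and at 4.68 ± 0.92 CPM in the ADC libraries (SD, n = 5). The activin receptors ACVR1B (0.14, adjusted p = 0.11) and ACVR2A (-0.18, adjusted p = 0.35) and the co-receptor endoglin (ENG, -0.02, adjusted p = 0.76), all named after their values were seen, were not called.

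Of 7 tested ligands and antagonists of the wider family, 4 were called higher (57.1%), 0 lower and 3 were not called, with a median of 0.37. For all tested genes the shares were 10.8% higher and 10% lower. The activin traps FST and FSTL3 rose by 0.49 (SE 0.07, adjusted p = 5.5e-06) and 0.37 (SE 0.05, adjusted p = 6.3e-06), beside an INHBA level that was not called. FSTL1 rose by 0.11 (SE 0.03), and the divergent family member GDF15 by 1.53 (SE 0.31, adjusted p = 0.00055) from a level of 0.995 ± 0.677 CPM. In all, 13 of the 20 listed genes did not pass the filter on low counts.

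Of 26 tested SMADs and SMAD regulators, 7 were called higher (26.9%), 5 lower (19.2%) and 14 were not called, with a median of 0.01. All tested genes gave 10.8% higher and 10% lower. Without ADC replicate 1 the counts of this list were 5 and 5. SMAD3 rose by 0.29 (SE 0.04, adjusted p = 1.2e-05), while SMAD2 (-0.10, adjusted p = 0.12) and the shared partner SMAD4 (0.05, adjusted p = 0.63), named after their values were seen, were not called. Of the feedback genes, PMEPA1 rose by 0.36 (SE 0.06, adjusted p = 4.7e-05), and SMAD7, the inhibitory SMAD, fell by 0.23 (SE 0.06, adjusted p = 0.0084). The ubiquitin ligase SMURF2 fell by 0.17 (SE 0.04) and its paralog SMURF1, named after its value was seen, rose by 0.23 (SE 0.06). NEDD4L rose by 0.18 (SE 0.04), and STRAP, SMAD5 and SKI fell by 0.12, 0.16 and 0.15. SKIL, named after its value was seen, rose by 0.15 (SE 0.05, adjusted p = 0.027). Among these called genes the groups overlapped for SMAD7, SMURF1, SKI and SKIL.

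Of 32 tested genes that TGF-beta is known to induce, 15 were called higher (46.9%), 4 lower (12.5%) and 13 were not called. The median was 0.21, and all tested genes gave 10.8% higher and 10% lower. Without ADC replicate 1 the counts of this list were 13 and 4. The 15 called higher include COL3A1, named after its values were seen. It had 0 to 10 counts in PBS and 9 to 43 counts in ADC libraries, and the groups overlapped. COL3A1 passed the filter on low counts only through its ADC libraries. With a filter at a mean of at least 1 CPM, which COL3A1 does not pass, 14 genes of this list were called higher. The protease inhibitor TIMP3 rose by 0.79 (SE 0.04, adjusted p = 1.7e-16), the collagen chain COL1A2 by 1.33 (SE 0.07, adjusted p = 1.5e-14) and the cytokine IL11 2.01-fold (SE of the log2 value 0.07, adjusted p = 2.2e-12). HMGA2 fell by 0.28 (SE 0.03), TPM1 by 0.17 (SE 0.03) and SERPINH1 by 0.12 (SE 0.04). The groups of SERPINH1 overlapped, and its call was lost in 7 of 17 alternatives. Named after their values were seen, CTGF (0.20, SE 0.03), COL1A1 (0.30, SE 0.05) and TNC (0.49, SE 0.04) rose. The 13 genes not called include FN1 (-0.04, SE 0.03), CYR61 (0.00, SE 0.03), LOX (-0.06, SE 0.03) and TAGLN (-0.08, SE 0.14), likewise named afterwards. Beside the increases above, the 7 fibroblast markers summed to 192 to 217 CPM in PBS and 217 to 267 CPM in the ADC libraries. Most of this sum was COL1A1 itself, at 156 ± 8 CPM in PBS and 192 ± 19 CPM in ADC (SD, n = 5). Of the 5 markers tested, 4 were called higher, COL1A1 among them. The fibroblast marker DCN had 0 to 2 counts per library. The part of these markers in the results was not tested.

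**Figure D4:**
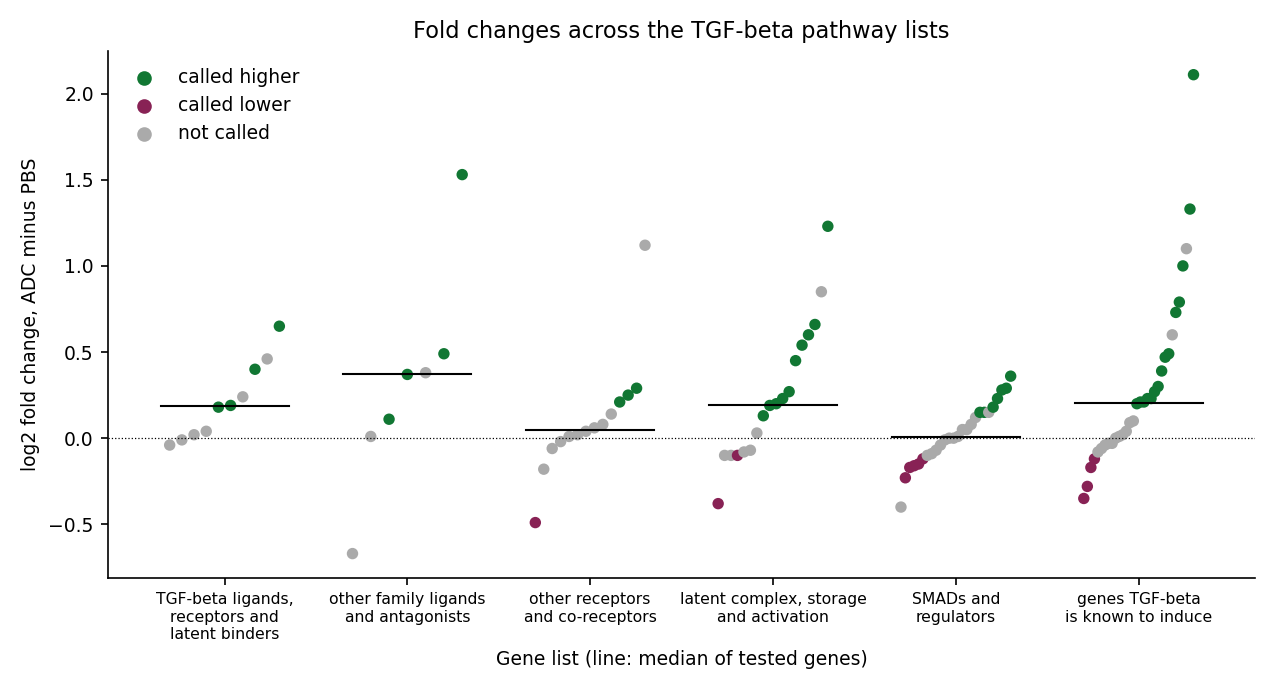
Log2 fold change, ADC minus PBS, of the 10 genes and of the tested genes of 5 further pathway lists, in rising order within each list, coloured by call, with a line at each median. The medians lie at 0.19 for the 10 genes, 0.20 for the latent complex list, 0.21 for the induced genes and 0.01 for the SMADs.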

How the data were processed

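The deposited table holds raw counts per gene for 10 libraries, made by the authors from poly(A)-selected RNA, per the labels' protocols. HISAT2, HISAT and TopHat2 and the build hg38 are named in the submitters' processing notes without roles. No source used here gives the counting tool or its strand setting, so reads from overlapping genes on opposite strands may be mixed. The gene length column, another deposited quantity per gene, equalled the union of exons in GENCODE release 29 for 58735 of 58735 genes.

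Low counts (2 to 21) were even in 65.4% to 67.3% of cases, so 2 counts may come from 1 fragment. If each count were a separate fragment, a count of 0 would allow up to 3 counts, or 0.0823 to 0.1061 CPM, for counting error only. With 2 counts per fragment this limit would be higher. No library was a copy of another of its group, since chi-square over its degrees of freedom was 5.18 to 16.5 for pairs of a group. Pairs across the groups were not compared in this way. The labels do not say that replicates were separate cultures, so the p-values reflect the spread among these samples alone, and that spread may be technical. Batches are not labelled.

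Low genes were removed with filterByExpr (at least 10 counts, total of 15), and the rest were scaled with TMM (factors 0.979 to 1.02) and tested with edgeR 4.0.16 (R 4.3.3) by the quasi-likelihood test, two-sided, with Benjamini-Hochberg adjustment over all 14504 genes at a threshold of 0.05. Called, rose and fell refer to this test. It was also run on counts simulated for the comparison of ADC with PBS, with 200 of 14504 genes changed. There it recovered 42.9% of genes changed 1.2-fold, 72.0% changed 1.5-fold and 81.2% changed 2-fold, with 6.70% false calls. In the data 3018 genes were called, many more than 200, so these rates need not hold for the real comparison. The alternatives were DESeq2 1.42.0, limma 3.58.1 (voom), library size alone, 2 other filters, halved counts, the replicate block and leaving out each library.

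The 10 genes and the pathway lists were chosen with earlier results of these data known. In each list the 3 called genes with the smallest adjusted p in each direction were named, and all of a direction with 5 or fewer, except where the text says that values were seen. One gene that this rule names is not reported here. Promoter windows for all 10 genes came from RefSeq (21 windows). Protein sequences were not used here.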

Additional observations from a re-analysis of the deposited data

Results flagged for a closer look

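In 5 groups of 5 libraries 1 value stood apart from the other 4 by more than Dixon's limit of 0.710 of the range, among 118 groups examined, where chance gives about 1 in 20. TGFB2 was 3.79 CPM in PBS replicate 2, against 6.17 to 6.86 CPM in the other PBS libraries. EMILIN1 was 55.3 CPM in ADC replicate 1, against 45.6 to 47.8 CPM, and ITGB8 was 11.5 CPM in the same library, against 7.02 to 8.23 CPM. SMURF2 was 147 CPM in ADC replicate 5, against 163 to 166 CPM. SMAD7 was 35.5 CPM in PBS replicate 4, against 43.5 to 44.8 CPM.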

How the results depend on the processing

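Among 170 values of the 10 genes under 17 alternatives, 168 kept their side of the threshold and 2 lost the call, both of TGFBR1. All 17 alternatives called TGFBR3, LTBP1 and LTBP2 higher and none of the 10 genes lower. TGFBR1 was called in 15 of them. For 49 further genes followed in the same way, 818 values kept their side and 15 lost a call, all of SERPINH1, SKIL or FURIN. FURIN, of the latent complex list and named after its values were seen, was called higher in the main test (log2 fold change 0.13, SE 0.04, adjusted p = 0.025). The groups of FURIN overlapped. Same-numbered libraries of the groups did not deviate together (correlations -0.01 to 0.04, and 1 of 10 libraries was closest to its own number). With the replicate number as a block, 4 of the 10 genes were called higher, and 1632 genes higher and 1520 lower overall. Levels per length depend on the gene model, and 14 of 20 moved by more than 1 SD with the longest transcript. With all counts halved, TGFB2 and TGFB3 kept log2 fold changes of 0.24 and 0.46 (adjusted p = 0.23 and 0.15). With the full counts, the PBS libraries of TGFB2 and TGFB3 had coefficients of variation of 21% and 37.9%.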

Other observations

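Receptor and protease genes on the fibroblast marker list were also higher after ADC. PDGFRB rose from 3.81 ± 0.58 to 8.32 ± 1.91 CPM (SD, n = 5), a log2 fold change of 1.12 (SE 0.14, adjusted p = 8.7e-07, edgeR). PDGFRA rose by 0.54 (SE 0.13, adjusted p = 0.0034) and FAP by 0.60 (SE 0.12, adjusted p = 0.00034), while THY1 was not called (-0.09, SE 0.06, adjusted p = 0.31). These 4 genes were named after their values were seen.

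TGFB2-AS1, an antisense neighbour of TGFB2, had 2 to 25 counts in PBS and 4 to 22 counts in ADC libraries and was not tested.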
